A study of Homo sapiens with 5 samples.

Results

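PITRM1 and GLE1 are protein-coding genes whose mRNAs were retrieved with the long non-coding RNA SNHG5 in HCT116 cells. All deposited peaks that overlapped PITRM1 (hg19 chr10:3179920-3215033, minus strand) or GLE1 (hg19 chr9:131266934-131306153, plus strand) were taken, which gave 12 of 9531 peaks, 8 in PITRM1 and 4 in GLE1. Of these, 6 were among the 905 peaks of the Odd probe pool and 6 among the 8626 peaks of the Even probe pool. HCT-116 is a colorectal cancer cell line, and all samples were cells cross-linked with 1% glutaraldehyde, so that RNAs held together stay together during lysis. In RIA-seq (RNA interactome analysis and sequencing), biotinylated antisense DNA oligonucleotides fish an RNA out of the lysate with streptavidin beads and the RNAs attached to it are sequenced. The Odd list came from 2 pull-down libraries pooled, the Even list from 1 library because its replicate had failed, and both lists were called against the same 2 pooled control libraries. The labels call those controls input, whereas the methods describe a luciferase oligonucleotide pool as the background, and which of these they hold could not be settled. Both names describe cells of the same line that received the same cross-linking, and no other treatment separated the groups. The peak caller had kept 4904959 Odd, 1965614 Even and 3986040 control tags, and SNHG5 itself, the bait, held 5 Odd and 7 Even peaks in its exons, whereas no peak lay in an exon of GAPDH, the study's negative control.

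PITRM1 encodes a metalloprotease of the mitochondrial matrix that degrades the presequences cut from imported proteins and other short peptides. GLE1 encodes an mRNA export factor that activates a DEAD-box helicase at the cytoplasmic face of the nuclear pore, and it also acts in translation. SNHG5 belongs to the snoRNA host genes, whose introns carry small nucleolar RNAs while the spliced exons form a long non-coding RNA. Because the probe pools are different sets of oligonucleotides against SNHG5, a peak found with both is less likely to come from 1 oligonucleotide that binds an mRNA directly. Some neighbouring oligonucleotides, such as 4 and 5, overlap in their targets on SNHG5.

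The peaks of PITRM1 lay in 4 consecutive exons, 13 to 16, in the middle of the coding sequence. Every one was found with both pools in the deposited lists. With the Even list cut to its 905 best peaks, 3 of 4 were. Those of GLE1 lay at opposite ends of the mRNA. Its first exon had an Odd peak only, its 3′ UTR had a peak with both pools, and an intron had a weak peak with the Even pool only. The 30 nt of mRNA around each Odd summit, the base with the highest tag coverage, are given in mRNA sense with the summit base in capitals, to give the place in the message that each peak marks. The letters are those of the GRCh37 (hg19) reference, and the interval of the exon 15 peak crosses the junction of exons 14 and 15, mRNA nt 1628 to 1657.
PITRM1 exon 13, chr10:3199156-3199185, minus strand: attcagacagtgcctGcaggaaaatccaaa
PITRM1 exon 14, chr10:3197884-3197913, minus strand: gcataagctgactttAtcgatgaggccaga
PITRM1 exon 15, exon 14-15 junction, minus strand: aaaggtctagaattaCggagtcaacaaagc
PITRM1 exon 16, chr10:3191875-3191904, minus strand: ggcatggtgtatttcCgggccttctccagc
GLE1 exon 1, chr9:131267113-131267142, plus strand: ccttgaaggccctacGcagttccgacaaag
GLE1 exon 16, chr9:131303960-131303989, plus strand: cttgtgaagtcattcTaaagctagaggaag

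The canonical PITRM1 transcript (ENST00000224949) has 27 exons and 3427 nt, of which 3111 nt are coding. Exons 13 to 16 form an unbroken stretch of 524 nt in it, mRNA nt 1358 to 1881, which encodes residues 450 to 624. In the genome these exons are spread over 7444 bp. In the mRNA the outermost Odd summits were only 361 nt apart, and the Odd summits fell in codons 478, 502, 545 and 599. All 8 PITRM1 summits lay in coding sequence, and 22 of the 27 exons were touched by no peak of either pool. The exon 13 peaks also reached into exon 12, which held no summit. Over the whole lists, 48.1% of Odd peaks and 31.6% of Even peaks had their summit in an exon of a protein-coding gene.

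The exon 14 peak of PITRM1 was the highest of the members in either pool. With the Odd pool it ran from 3197576 to 3198159 on chromosome 10, a width of 584 bp, and 495 tags covered its summit (95% Poisson interval 452 to 541). That is 101 RPM, here the tags at the summit per 1000000 tags that the peak caller kept, which adjusts for the number of kept tags only. With the Even pool it ran from 3197560 to 3198183, a width of 624 bp, and 159 tags (135 to 186), or 80.9 RPM, covered the summit. Within its own list this peak stood at rank 27 of 905 by p-value with the Odd pool and at rank 145 of 8626 with the Even pool.

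The exon 13 peak spanned 3198913 to 3199721 (809 bp) with the Odd pool, where its summit held 288 tags (256 to 323) or 58.7 RPM. With the Even pool it spanned 3198884 to 3199680 (797 bp) and held 81 tags (64.3 to 101) or 41.2 RPM. These were the widest peaks of the members and the only ones to reach a second exon. The exon 15 peak spanned 3193232 to 3193797 (566 bp) with 268 Odd tags (237 to 302), 54.6 RPM. The Even peak there spanned 3193204 to 3193829 (626 bp) with 86 tags (68.8 to 106), 43.8 RPM. Exons 13 and 15 thus stood at a like level in each pool, below exon 14. The exon 16 peak was the lowest of the 4, spanning 3191614 to 3192145 (532 bp) with 129 Odd tags (108 to 153), 26.3 RPM. Its Even counterpart spanned 3191670 to 3192194 (525 bp) with 34 tags (23.5 to 47.5), 17.3 RPM. It was the only PITRM1 peak outside the 905 best Even peaks, at rank 995.

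The profile over the 4 exons had the same shape with both pools. Relative to exon 14, the summit tags of exons 13, 15 and 16 came to 58.2, 54.1 and 26.1% with the Odd pool. With the Even pool they came to 50.9, 54.1 and 21.4%. In both pools the intervals of exons 13 and 15 overlapped each other and neither reached those of exon 14 or exon 16.

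**Figure D1:**
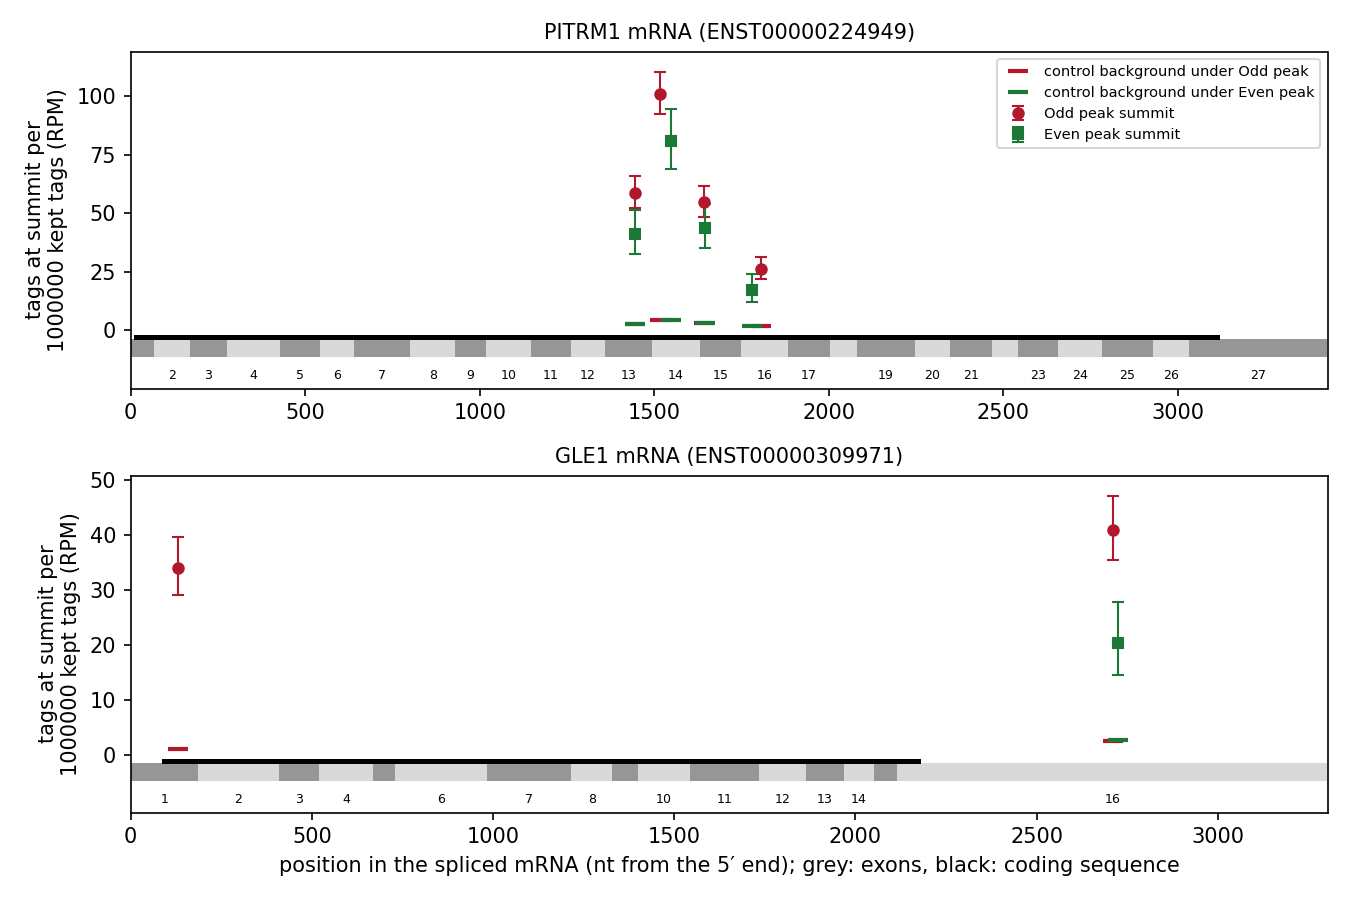
Peak summits along the spliced PITRM1 and GLE1 mRNAs (horizontal axis, nt from the 5′ end), with tags at the summit per 1000000 kept tags (RPM) on the vertical axis for the Odd (circles) and Even (squares) pools, 95% Poisson intervals as bars, and the control background as dashes. The PITRM1 summits cluster in exons 13 to 16 with exon 14 highest in both pools at 101 and 80.9, whereas the GLE1 summits lie in exon 1, with the Odd pool only, and in exon 16; the intronic Even peak of GLE1 has no place on the mRNA and is not drawn.

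Exons 13 to 16 are 117 to 139 bp long, shorter than the 260 bp (Odd) and 290 bp (Even) to which the peak caller had extended each tag along the genome. Accordingly, only 18.7 to 28.4% of the bases of the PITRM1 peaks were exonic, although every summit was inside an exon, 11 to 56 bp from its nearer edge. The widths of these peaks are therefore not the widths of a contact on the mRNA. The summits of the pools fell 1 bp apart in exons 13 and 15, 32 bp apart in exon 14 and 26 bp apart in exon 16. Over all 360 Odd peaks that an Even peak overlapped, the median distance was 27 bp and 23 pairs (6.39%) were within 1 bp.

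The GLE1 transcript (ENST00000309971) has 16 exons and 3302 nt, with 2094 nt of coding sequence between a 5′ UTR of 87 nt and a 3′ UTR of 1121 nt. Its Odd summits were 2579 nt apart in the mRNA, and 14 of the 16 exons were touched by no peak. The exon 1 peak held 167 tags at its summit (143 to 194), or 34.0 RPM, over a width of 514 bp. The summit lay in codon 15, close to the start of translation, and 36.2% of the peak's bases were exonic, the rest lying upstream of the first exon and in the first intron.

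No Even peak overlapped GLE1 exon 1. With the control background found there, carried over to the Even list, 6 Even tags (3.05 RPM) would have been enough to pass the peak caller's p threshold of 0.001. At the Odd level, 66.9 Even tags would have been present. At the Odd over Even ratio measured in the GLE1 3′ UTR, the number would have been 33.2. Why no Even peak was listed there was not tested.

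The 3′ UTR peak of GLE1 in exon 16 spanned 131303650 to 131304201 (552 bp) with the Odd pool, where 201 tags covered the summit (174 to 231), or 41.0 RPM. With the Even pool it spanned 131303624 to 131304207 (584 bp), and 40 tags (28.6 to 54.5), or 20.3 RPM, covered a summit 14 bp away. Both peaks were exonic over their whole width, unlike those of PITRM1, since exon 16 is 1187 bp long. By p-value the Odd peak stood at rank 159 and the Even peak at rank 901, just within the 905 best.

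The remaining Even peak of GLE1, at 131279507 to 131279796, lay in the intron after exon 3, 1589 bp from that exon and 5151 bp from the next. It was 290 bp wide, the length of 1 extended tag, and rested on 2 tags (0.242 to 7.22), 1.02 RPM. Its fold enrichment of 9.47 came from the genome-wide floor of the background, its q-value was 0.0692, and it stood at rank 8096. This peak was among the weakest of its list, in which 1310 peaks (15.2%) had the same 2 tags and the same fold. An equal level would have given 4.99 tags in the Odd libraries, whose listed peaks held at least 20. A peak of that level would thus lie below every peak of the Odd list. The methods state that peaks in introns were dropped from the study's own selection.

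Of the Odd peaks, 4 of 4 in PITRM1 and 1 of 2 in GLE1 were overlapped by an Even peak, against 39.8% of all Odd peaks. From the Even side, 4 of 4 and 1 of 2 were overlapped by an Odd peak, against 4.32% of all Even peaks. That share is low partly because the Even list holds 8626 peaks against 905. The exonic Even members stood at percentiles 88.8 to 97.8 of its summit tags, and a share among Even peaks of like height was not computed. The methods carried the number of reproducible Odd peaks over to the Even pool, 905 for both in the optimal result. Counting only the 905 best Even peaks, 3 of 4 PITRM1 peaks and 1 of 2 GLE1 peaks were shared, against 13.1% of Odd peaks. The members were taller than most Odd peaks, with summit tags at percentiles 70.6 to 96.8 of the Odd list. Among the 266 Odd peaks with at least 129 summit tags, the number of the lowest member, 45.5% were overlapped by an Even peak. The paper's ranking of targets drew on peaks of these same data, so the shares of the members are not independent of their choice.

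In RPM, the Odd pool gave higher summits than the Even pool at all 5 shared places. The ratio was 1.42 (95% interval from the counts 1.11 to 1.85) in PITRM1 exon 13, 1.25 (1.04 to 1.50) in exon 14, 1.25 (0.976 to 1.61) in exon 15 and 1.52 (1.04 to 2.29) in exon 16. It was 2.01 (1.43 to 2.90) in the GLE1 3′ UTR. The interval lay above 1 in 4 of these 5, against 57.8% of the 360 shared peaks, whose median ratio was 1.97 (interquartile range 1.30 to 2.73). PITRM1 was thus on the side of more even recovery, at percentiles 21.9 to 31.9 of the ratio, and GLE1 near the middle at percentile 51.4. The intervals cover counting error only, and with 1 deposited list per pool the spread between libraries could not be measured. RPM does not adjust for the tag extension, 260 bp (Odd) and 290 bp (Even), or for the duplicate caps of 3 and 2 tags. At the 360 shared peaks the median Odd over Even ratio of the control background was 0.897, although both lists used the same control libraries.

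**Figure D2:**
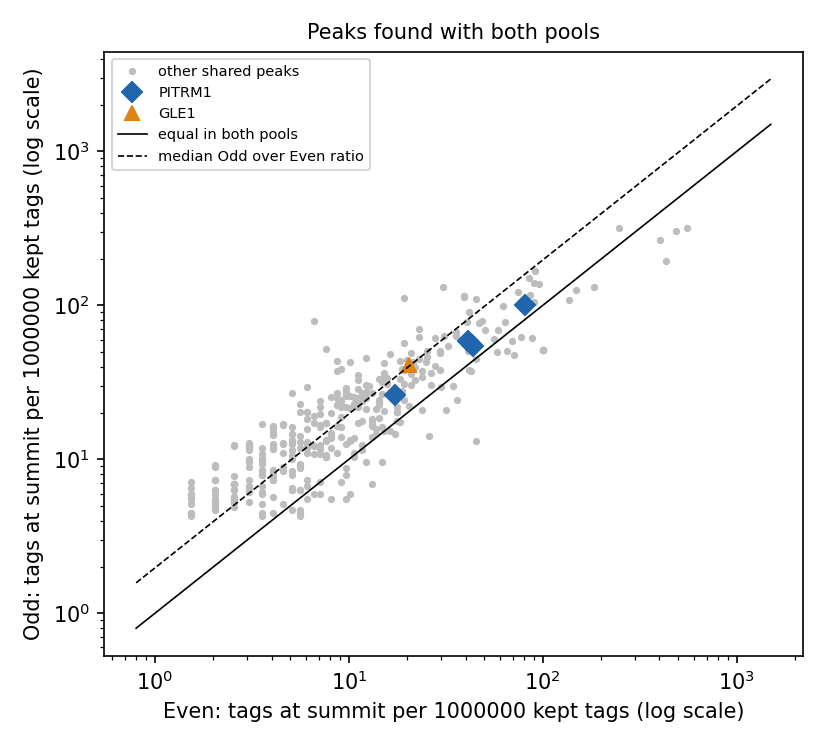
Tags at the summit per 1000000 kept tags (RPM) with the Even (horizontal, log scale) and the Odd pool (vertical, log scale) for the 360 Odd peaks overlapped by an Even peak, with PITRM1 as diamonds and GLE1 as a triangle. The 4 PITRM1 peaks lie between the line of equality and the dashed line of the median ratio, 1.97, and the GLE1 peak lies on the dashed line; the symbols of exons 13 and 15 overlap.

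The control background was recovered as the quotient of scaled tags and fold enrichment. Under the exonic peaks it corresponded, within 1%, to a small whole number of control tags in the window the peak caller had used. In PITRM1 these were 11, 17, 12 and 8 control tags for exons 13, 14, 15 and 16 of the Odd list, and 11, 17, 13 and 8 for those of the Even list. As for the pull-down tags, exon 14 had the most control tags and exon 16 the fewest. The background was 4.27 RPM under the Odd and 4.26 RPM under the Even exon 14 peak, and between 2.01 and 3.26 RPM under the other PITRM1 peaks. In the GLE1 3′ UTR it was set by a wider window of 1 kb, with 37 and 36 control tags, and came to 2.41 and 2.62 RPM. Among the exonic peaks it was lowest under GLE1 exon 1, at 1.00 RPM from only 4 control tags, and under the intronic Even peak it was the floor of 0.107 RPM. The median background over the Odd list was 0.753 RPM, and the members stood at percentiles 58.3 to 87.2. Since both lists used the same control libraries, the backgrounds of the pools are not independent measurements.

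Fold enrichment in PITRM1 was 21.3 (95% interval from both tag counts 11.7 to 43.1), 23.7 (14.6 to 40.9), 18.2 (10.2 to 35.6) and 13.1 (6.45 to 31.0) with the Odd pool for exons 13, 14, 15 and 16. With the Even pool it was 14.9 (7.92 to 31.1), 19.0 (11.5 to 33.4), 13.4 (7.45 to 26.2) and 8.62 (3.92 to 21.6). The order of the exons was the same with both pools, but all 4 intervals overlapped within each pool, so the folds did not separate the exons as the tags did. In the GLE1 3′ UTR the fold was 17.0 (11.9 to 24.8) with the Odd and 7.77 (4.83 to 12.5) with the Even pool. Fold was highest among the members in GLE1 exon 1, where the interval from 4 control tags ran from 13.0 to 126 and overlapped those of the other 5 Odd peaks. Within the Odd list, whose median fold was 22.8, the PITRM1 folds stood at percentiles 33.1 to 51.5 and the GLE1 folds at 62.3 and 42.3. Within the Even list, whose median fold was 9.47, the PITRM1 folds stood higher, at percentiles 78.3, 85.3, 64.4 and 34.4 for exons 13 to 16, and the fold of the GLE1 3′ UTR stood at 29.2. The Odd members were thus high in tags but near the middle of their list in fold, whereas with the Even pool the folds of PITRM1 exons 13 to 15 were above the middle. These middles are not alike, because the Odd list was cut to reproducible peaks with at least 20 tags. The Even list had a median of 5 tags, and its median fold of 9.47 was that of 1310 peaks with 2 tags. The fold percentiles therefore do not compare the pools.

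**Figure D3:**
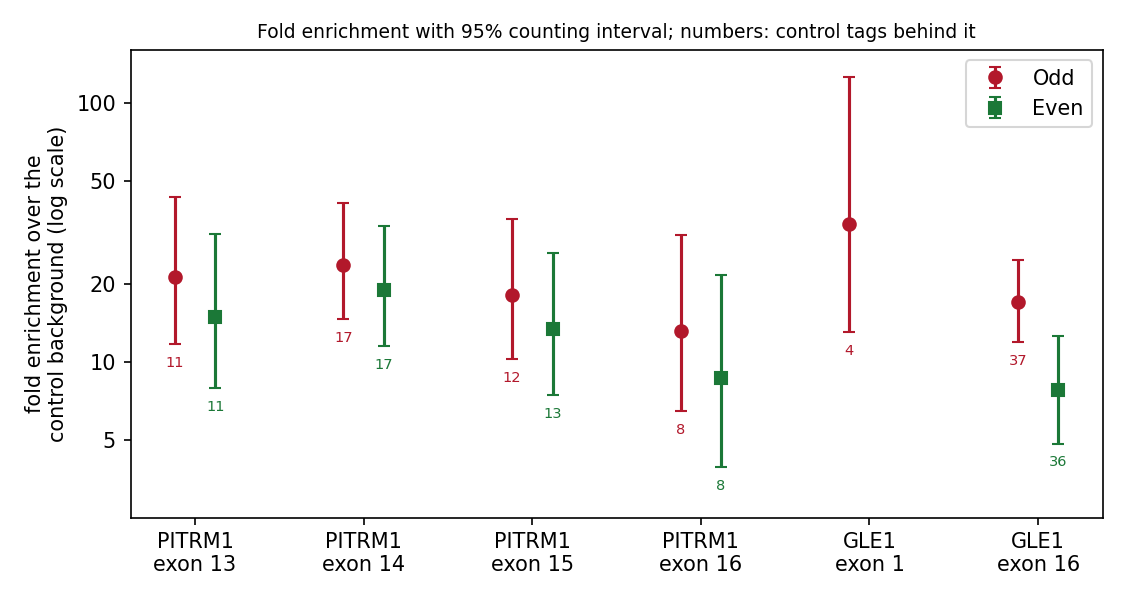
Fold enrichment over the control background (vertical, log scale) for the 6 exonic places, Odd (circles) and Even (squares), with 95% intervals from the tag and control counts and the number of control tags printed under each bar. GLE1 exon 1 has the highest fold and, with 4 control tags, the widest interval, 13.0 to 126; it has no Even peak.

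Few genes had as many Odd peaks as PITRM1. The paper had ranked its short list of target mRNAs from these same data, by peak number per transcript and enrichment over background. A high place of the members by peak number or shared peaks is therefore no independent support. Of 396 protein-coding genes with an exonic Odd peak, 331 had 1, and 7 (1.77%) had at least 4. SPATS2, the transcript with the most, had 13. Of the 4 genes with exactly 4, PITRM1 and 2 others had all of them overlapped by Even peaks, and only 1 protein-coding gene had more shared Odd peaks than PITRM1. Summits in at least 4 consecutive exons occurred in 6 of the 7 genes, so the run over exons 13 to 16 was common to this group. GLE1 had 2 exonic Odd peaks, and 65 genes (16.4%) had at least that many, 26 of them more. A peak in exons of overlapping annotated genes was counted for each, so the genes counted here are not all separate loci. By the mean fold of exonic Odd peaks, 19.0 for PITRM1 and 25.5 for GLE1, the genes stood only at rank 110 and rank 81. By the RPM of the highest exonic Odd summit they stood at rank 17 and rank 92.

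**Figure D4:**
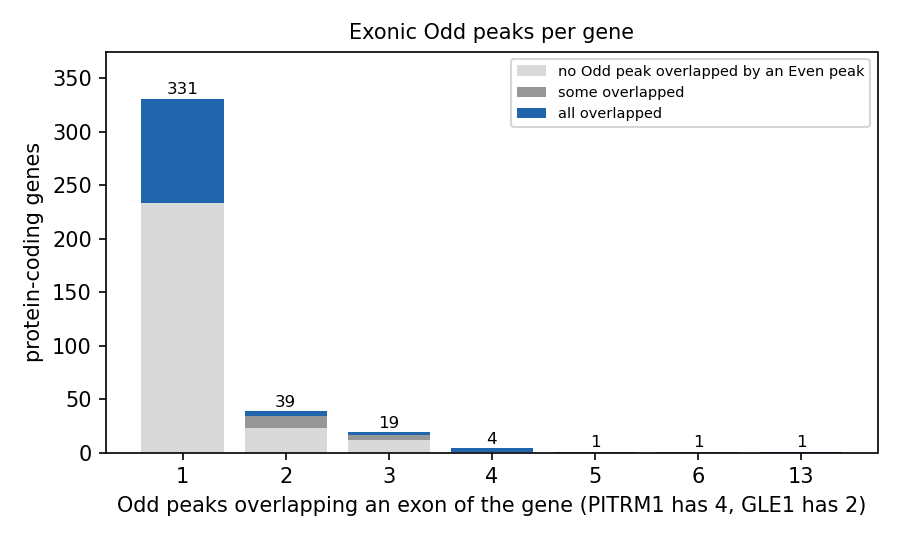
Number of protein-coding genes (vertical) by the number of Odd peaks overlapping an exon of the gene (horizontal, counts that occurred), with the shading giving whether Even peaks overlapped none, some or all of them. Most genes, 331 of 396, had 1 Odd peak; PITRM1 was among 4 genes with 4 peaks, and GLE1 among 39 genes with 2 peaks.

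The genes nearest to PITRM1 in numbers of exonic peaks and mean folds of both pools, out of 199 candidates, included CEP128 (distance 0.668 on log2 scales) and ZNF335 (0.816), with 3 and 2 exonic Odd peaks, all of them overlapped by Even peaks. Nearest to GLE1 were RNF41 (0.378), IFT140 (0.427) and MAP7 (0.459), with 2, 2 and 3 exonic Odd peaks and 1 Even peak each. Unlike the 3′ UTR peak of GLE1, none of the Odd peaks of these 3 genes was overlapped by an Even peak.

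The peak lists carry no strand, and the non-coding RNA gene PITRM1-AS1 overlaps PITRM1 on the opposite strand. No PITRM1 or GLE1 peak touched an exon of this or any other neighbouring gene, including PFKP, which ends 9 bp from PITRM1. The 501 bp around each PITRM1 summit and around the GLE1 exon 1 summit had no second match in the genome of at least 90% identity. The window of the GLE1 3′ UTR peaks had 4 such matches, the longest of 44 bp, and that of the intronic Even peak had 401, the longest of 190 bp. None of these covered a summit.

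Sequence shared with SNHG5 was set beside that of 403 other Odd peaks. Their summits lay in a canonical-transcript exon of 1 protein-coding gene only. This was done since an antisense oligonucleotide can pair with a sense match and SNHG5 itself with a complementary one. In 501 bp of genomic sequence around the Odd summits, the longest exact run identical to spliced SNHG5 was 9 or 10 nt in PITRM1, 11 nt in GLE1 exon 16 and 12 nt in GLE1 exon 1, with a median of 10 nt over the other peaks. For GLE1 exon 1, 85.4% of the other peaks had a shorter run. The longest complementary run was 7 to 9 nt in PITRM1 and 8 nt in both GLE1 peaks, against a median of 9 nt. Neither kind of match set the members as a group apart from the other peaks.

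The runs are shown in capitals within 30 nt of mRNA, first the identical ones of the tallest PITRM1 peak and of both GLE1 peaks, then a complementary one of PITRM1 exon 13. They are the longest runs in up to 501 nt of spliced mRNA centred on a summit, where exons 13 to 15 are close together.
PITRM1 exon 14, identical, chr10:3197883-3197892, minus strand: ctttatcgatGAGGCCAGATgacaagtatc
GLE1 exon 1, identical, chr9:131267093-131267104, plus strand: catgccgtcTGAGGGTCGCTGctgggagac
GLE1 exon 16, identical, chr9:131304039-131304049, plus strand: ggctagattAACATCTGGGAttaggactgg
PITRM1 exon 13, complementary, chr10:3199153-3199161, minus strand: tgcaggaaaaTCCAAAATTtttgcaagaaa

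The coordinates give the runs in capitals. SNHG5 positions are on a spliced transcript of 451 nt, the one the paper named for its interaction prediction. The paper gives a shorter length for the isoform it studied, so these positions do not carry over to it directly. The PITRM1 exon 14 run matched SNHG5 nt 299 to 308, and its middle lay 11 nt from the Odd summit. It lay wholly within the target of probe oligonucleotide 15, SNHG5 nt 299 to 317. The GLE1 exon 1 run matched nt 273 to 284, 29 nt upstream of the summit, and the GLE1 exon 16 run matched nt 129 to 139, 69 nt downstream. Of these, 5 nt and 6 nt fell in the targets of the placed probe oligonucleotides 13 and 6. Of 20 listed probes, 14 could be placed on SNHG5 by exact match, and those not placed do not enter these overlaps. Probe oligonucleotides 12 and 14 were among those not placed. As extracted, the letters of oligonucleotide 14 hold the reverse complement of the whole GLE1 exon 1 run, and those of oligonucleotide 12 hold most of it. The complementary run in PITRM1 exon 13 pairs with nt 443 to 451, the 3′ end of SNHG5. Which pool each probe belonged to was not used, and the part of these matches in the peaks was not tested.

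Base composition differed between the places. The genomic windows of PITRM1 exon 13 and GLE1 exon 1 lay near opposite ends of the range, with a GC content of 31.3% and 64.3%. Lower values were found in 4.22% and 93.3% of the other peaks, respectively. The other members ranged from 37.9 to 47.3%, around the median of 42.1%. When the window was taken from the spliced mRNA, GLE1 exon 1 came to 55.9%, with 80.9% of the other peaks lower. PITRM1 exon 13 then came to 44.1%, with 43.2% of the other peaks lower, whereas the genomic window had included flanking introns. The same held for the longest run that could pair with SNHG5 when G-U pairs were allowed, which was 16 nt in the genomic window of exon 13 and 12 nt in the spliced one.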

How the data were processed

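Adapters were trimmed from the single-end reads by the authors, who then aligned with STAR (build hg19). Peak calling used MACS 2.0.9 (version per the file headers) with a p threshold of 0.001. The 2 Odd libraries were pooled, and so were the 2 control libraries. Whether the libraries kept strand is not given in the sources used here. The deposited lists hold, per peak, the pileup (tag coverage signal at the summit), the fold enrichment (a ratio to the background) and −log10 p as MACS wrote it, and −log10 q, read from the Even list only. The Odd list was cut by the authors to its reproducible peaks. Duplicates were capped, at 3 tags per position for Odd and 2 for Even, so 3.27% of 150214135 Odd tags and 3.51% of 55933565 Even tags were kept, and no member pileup exceeded 31.7% of the highest value this cap allows.

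MACS had scaled the Even tags by 2.03 and the control by 1.23 for Odd. For 8626 of 8626 Even peaks, a whole number of tags, multiplied by the scale and cut to its whole part, returned the deposited pileup exactly. This number was taken as the tags. For the 905 Odd peaks the scale on the tags was 1, so the deposited pileup itself was taken as the tags. The background was taken as scaled tags over fold with no pseudocount, because a Poisson upper tail then returned the deposited p, with a median difference of 0.00456 (Odd) and 0.00363 (Even) in −log10 p. Tag intervals are exact Poisson and fold and ratio intervals exact conditional binomial (Clopper-Pearson), at 95%, and cover counting error only. Tags without molecular identifiers are not independent molecules.

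Peaks were assigned by an overlap of at least 1 bp and exons numbered on Ensembl canonical transcripts of GENCODE 44 lifted to GRCh37, and 14 Odd and 215 Even peaks lay on sequences outside this reference. Sequences came from the GRCh37 reference (pysam 0.24.0), and copies were searched with blastn 2.17.0. The code for overlap and tag recovery was run on simulated data, in which 60 of 60 planted overlaps and 5000 of 5000 tag numbers were recovered. The planted shifts were far smaller than a peak, and the tag numbers came from the same rule that was inverted. These runs therefore check the code and not the data. Named genes were the members, their neighbours, SNHG5, GAPDH, SPATS2 and the 3 nearest genes by peak numbers and mean folds, of which 1 is not reported here. The members and lists were chosen with earlier results of these data known. With 1 list per pool no test between samples was possible. There were 0 columns of other samples. Python 3.11.15, scipy 1.17.1 and pandas 2.3.3 were used.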

Additional observations from a re-analysis of the deposited data

How the results depend on the processing

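Peak numbers, shared peaks, regions and runs were recomputed with other overlap rules, summits, spans, transcripts and windows. Counts, ranks and run lengths were treated as unmoved within 1.5 times, and means and backgrounds only where equal. By this measure 46 of the values under alternatives listed at the outset were unmoved and 10 moved. The unmoved ones include 3 instead of 4 shared PITRM1 peaks among the best Even peaks, and longest complementary runs of 13 nt (PITRM1) and 10 nt (GLE1) with all SNHG5 transcripts instead of 9 and 8 nt. GLE1 had 2 Even peaks, but 1 among as many best Even peaks as the Odd list holds and 0 among the best 700 of each list, where it also had 0 shared peaks instead of 1. Ranked by mean Odd fold instead of peak number, PITRM1 went from rank 4 to 110 and GLE1 from 27 to 81, which put GLE1 ahead of PITRM1. The mean Odd fold of GLE1 was 25.5, and 17.0 with the shared peak alone. As medians, the PITRM1 folds were 19.7 (Odd) and 14.2 (Even) against means of 19.0 and 14.0. Mean GC content in a 100 bp reach was 43.8% for PITRM1 and 51.7% for GLE1, against 40.2 and 53.3%. After seeing the data, a spliced window was added, which gave 48.9 and 49.1%, and a pseudocount of 1, which gave highest backgrounds of 20.0 (PITRM1 Odd), 16.0 (PITRM1 Even), 10.9 (GLE1 Odd) and 9.57 (GLE1 Even) against 20.9, 17.0, 11.8 and 10.4. No paired analysis was possible because each pool has 1 deposited list and no values per replicate, and for the same reason no replicate could be left out. Depth limits the Even list, where 18.7% of peaks rest on 2 tags, and the folds of PITRM1 and GLE1, which rest on 4 to 37 control tags.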

Other observations

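The longest exact matches to SNHG5 over the whole mRNAs did not lie under the PITRM1 peaks. In PITRM1 the longest complementary run, of 12 nt, was in exon 7 and the longest identical run, of 11 nt, in exon 27, where no peak was called. In GLE1 the longest identical run, of 12 nt, was the one in exon 1 under the Odd peak, and the longest complementary run, also of 12 nt, was in exon 16 at mRNA nt 2238 to 2249, upstream of both peaks of that exon.

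The PITRM1 primer pair listed for RIA-seq, placed by exact match of its extracted letters, lay in the mRNA from nt 158 (forward) to the reverse primer that starts at nt 221, on chr10:3209163-3209183 in exon 3. This is in no peak of either pool. The GLE1 primers as extracted had no exact match and were not placed.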
